A study of Mus musculus with 11 samples.

Results

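The genes described here are 4 growth factors of macrophages and granulocytes (Csf1, Csf2, Csf3 and Il34), the receptor Csf1r, and 5 genes that mark myeloid cells (Cd14, Cd68, Lyz2, Mrc1 and Tyrobp). They were chosen by name, with earlier results of these data known. Each was found through the Entrez Gene identifier that names a row of the table of array signals. Of the 10 genes 9 had a row among 23835 named genes, and no signal of Lyz2 was analysed here. The arrays measured RNA of mouse mammary tumour cells that carry the transgenes MMTV-rtTA and TetO-Wnt1, by which doxycycline turns on the oncogene Wnt1 in cells where the MMTV promoter is active. The cells bore the green fluorescent histone H2B-eGFP, grew orthotopically in female nu/nu mice on doxycycline, and are labelled as isolated GFP-positive tumour cells. The primary group (4 arrays) is labelled untreated, the residual group (3 arrays) was taken 28 days after doxycycline was withdrawn to shut off Wnt1, and the recurrent group (4 arrays) comes from tumours that grew back after Wnt1 inhibition. All 3 groups share the transgenes, the label and the host. Athymic nu/nu hosts lack mature T cells and keep their myeloid cells. The labels do not tell how many tumours or clones the cells came from, nor whether each array stands for its own mouse. The p-values therefore only set group differences against the spread between these arrays, and that spread may be technical.

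CSF1 and IL-34 are the ligands of CSF1R, the receptor tyrosine kinase on which monocytes and most tissue macrophages depend for survival and growth. GM-CSF, the product of Csf2, acts on granulocytes and macrophages, and G-CSF, the product of Csf3, drives neutrophil production. Mammary epithelium and mammary tumours can make CSF1, and CSF1 made there recruits macrophages. The other genes are read as traces of host cells: Tyrobp (DAP12) is the signalling adaptor of activating receptors on myeloid and natural killer cells, Cd68 a lysosomal glycoprotein, Mrc1 the mannose receptor CD206, and Cd14 a co-receptor for lipopolysaccharide that mammary epithelial cells can also make.

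Of the 10 genes 5 had a RefSeq promoter window (GRCm38.p6). The 250 bases before the start site are shown for 3 of them, the growth factor with the firmest change between groups and a pair of macrophage markers. Both strands were searched for 6 motifs: GAGGAA (the core of PU.1 sites, the myeloid master factor), TGANTCA (AP-1), the NF-kB consensus, TTNNGNAA (C/EBP), TATAAA (the core promoter box) and GGGCGG (the Sp1 box). Capitals mark matches to the PU.1, AP-1, NF-kB or core promoter box motif.
Csf1, chr3:107760470-107760719, minus strand: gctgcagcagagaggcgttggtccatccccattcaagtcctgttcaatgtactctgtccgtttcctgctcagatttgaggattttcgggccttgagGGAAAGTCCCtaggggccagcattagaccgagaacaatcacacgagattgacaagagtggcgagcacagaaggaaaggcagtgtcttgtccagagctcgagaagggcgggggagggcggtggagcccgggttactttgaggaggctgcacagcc
Cd68, chr11:69666171-69666420, minus strand: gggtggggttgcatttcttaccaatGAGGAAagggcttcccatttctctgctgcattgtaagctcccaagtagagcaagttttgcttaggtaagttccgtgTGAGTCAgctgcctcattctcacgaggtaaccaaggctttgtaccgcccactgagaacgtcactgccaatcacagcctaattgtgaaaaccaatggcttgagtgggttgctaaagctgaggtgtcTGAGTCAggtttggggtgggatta
Mrc1, chr2:14229164-14229413, plus strand: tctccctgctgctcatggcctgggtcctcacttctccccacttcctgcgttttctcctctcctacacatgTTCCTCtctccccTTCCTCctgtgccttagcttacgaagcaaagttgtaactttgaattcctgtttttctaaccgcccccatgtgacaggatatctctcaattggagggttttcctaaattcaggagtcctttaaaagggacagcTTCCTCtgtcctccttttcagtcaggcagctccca

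The Csf1 window held 1 NF-kB match, read on the opposite strand from 154 bases before the start, and 2 Sp1 boxes. A match to the NF-kB consensus was present in 7.25% of 32851 RefSeq promoter windows of this length. The Cd68 window held 2 AP-1 matches and 1 PU.1 core, and the Mrc1 window 3 PU.1 cores, all on the opposite strand. AP-1 letters were present in 6.75% and the PU.1 core in 23.3% of all windows. The C/EBP letters, present in 36.8% of windows, matched 3 times in Cd68 and 2 times, overlapping, in Mrc1, and each of these windows held 1 Sp1 box, as did 32.7% of all. None of the 3 windows held TATAAA, which 12.4% of windows did. The windows of Csf2 and Lyz2, searched but not shown, held 0 matches to the PU.1, AP-1, NF-kB or TATAAA motifs. Each held 1 C/EBP match, and that of Csf2 also 1 Sp1 box. A match is a run of letters and does not show that a factor binds there.

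Every array gave log2 signals between 1.10 and 13.3, with medians of 4.29 to 4.41. No detection call was used, so the 95th percentile of 1083 olfactory receptor genes, which mammary cells are not known to use, served as the background level: 4.00 to 4.03 on primary arrays, 4.35 to 4.39 on residual arrays and 4.06 to 4.12 on recurrent arrays. Signals of different genes come from different probes and are not set against each other. Calls are limma's, at a Benjamini-Hochberg adjusted p below 0.05 over all 23835 genes. Of 13 mammary epithelial markers 5 were above background on all arrays and 1, Elf3, on none. The brightest were the keratins Krt18 (means of 10.4, 8.09 and 9.84 in primary, residual and recurrent cells), Krt8 (10.1, 8.41 and 9.78) and Krt14 (7.63, 10.4 and 7.08), and in residual against primary cells 2 of the 13 rose and 3 fell. Fibroblast markers were also present, and 9 of 13 rose and 0 fell in residual against primary cells and 6 rose and 0 fell in recurrent against primary cells, with Postn (periostin) at means of 5.39, 12.2 and 11.7 at the 3 stages. Over all genes, 4.81% were called higher and 7.61% lower in residual against primary cells. In recurrent against primary cells the shares were 0.818% and 0.986%. The part of other cells in the members' signals was not tested.

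Among 9 measured genes, 4 fell in residual against primary cells (Csf1, Csf3, Cd14 and Tyrobp), 0 rose and 5 did not pass, where 12.4% of all genes tested were called 4.81% higher and 7.61% lower. Their median log2 fold change was -1.28, against 0.03 over all genes, and it was -1.37 over the 8 genes left without Csf2, which was below background on every array. In bulk RNA fewer cells of a type and less RNA per cell cannot be told apart. In recurrent against primary cells 1 rose (Il34), 1 fell (Cd14) and 7 did not pass, where 1.80% of all genes were called, 0.818% higher and 0.986% lower. In recurrent against residual cells 1 rose (Csf1) and 8 did not pass, where 5.78% of all genes were called, 3.58% higher and 2.19% lower. The comparisons share arrays, since each group enters a pair of them. With each array centred on its median, the genes called in residual against primary cells split into 899 higher and 2333 lower, against 1146 and 1814 without centring.

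**Figure D1:**
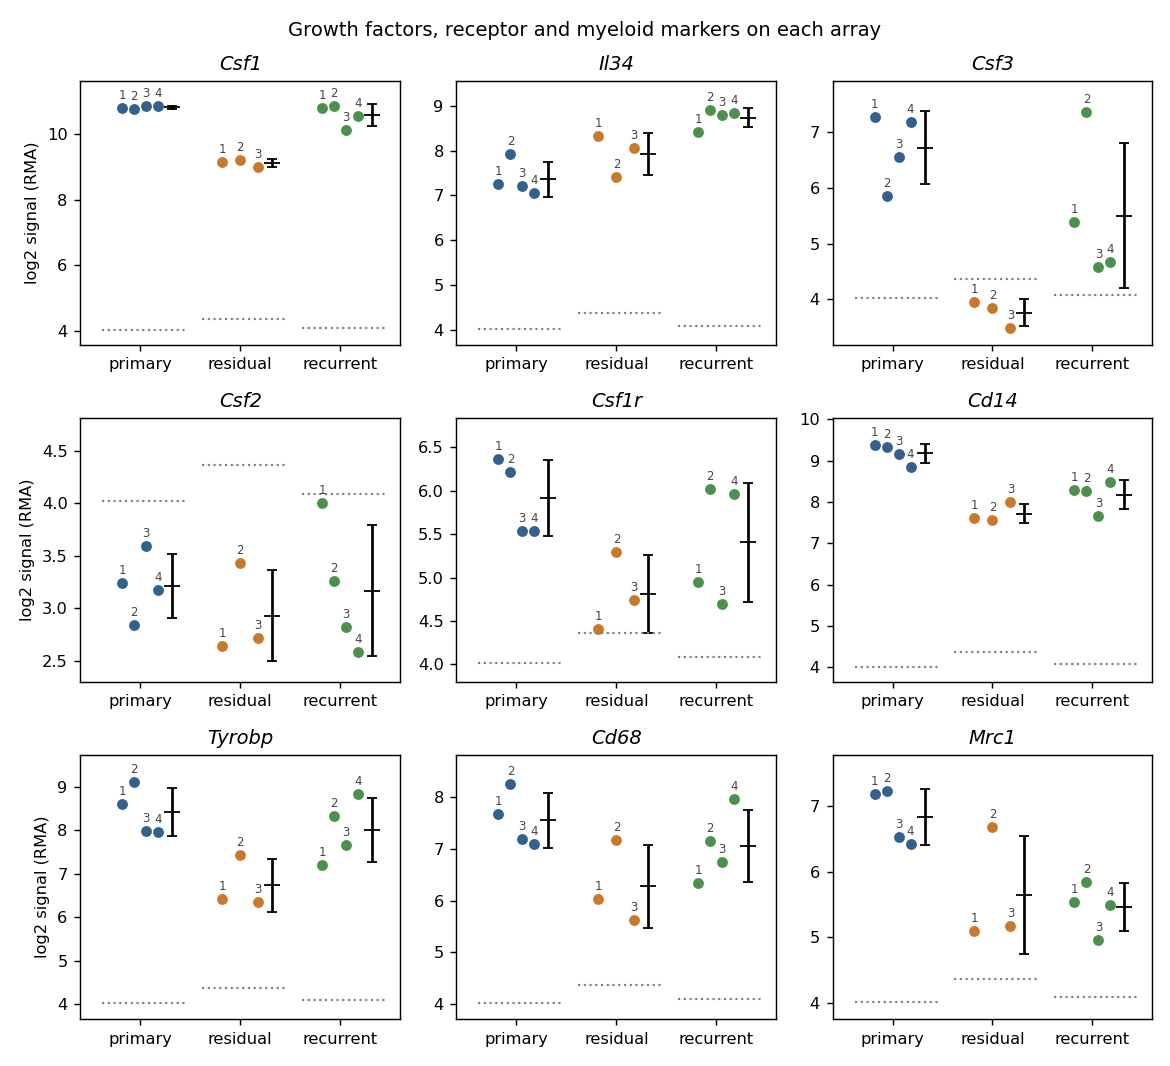
Log2 signal of the 9 measured genes on each of the 11 arrays (y axis, RMA log2 signal) by group (x axis). Small numbers are the replicate numbers of the labels, black marks the mean ± SD of the group, and dotted lines the mean background level of the group's arrays; the y ranges differ between genes. All 3 residual arrays of Csf1 lie below all other arrays, all recurrent arrays of Il34 above all other arrays, and the residual arrays of Csf3 and all arrays of Csf2 under the background level.

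Csf1 was low at the residual stage alone. It read 10.78, 10.77, 10.86 and 10.85 on primary arrays 1 to 4, 9.15, 9.21 and 8.99 on residual arrays 1 to 3, and 10.80, 10.86, 10.13 and 10.55 on recurrent arrays 1 to 4. The residual arrays lay below every other array, while recurrent arrays 1 and 2 lay within the narrow primary range and arrays 3 and 4 below it. Residual cells were 3.24-fold lower than primary cells (log2 fold change -1.70, SE 0.17, adjusted p = 6.95e-05 in limma). Recurrent cells were 2.77-fold higher than residual cells (1.47, SE 0.17, adjusted p = 0.000348). Between recurrent and primary cells the difference was -0.23, with a 95% interval from -0.57 to 0.11 and an adjusted p of 0.586, so the order was residual below the other stages, which did not differ beyond their spread. Both calls held in all 22 refits with another fit, scaling, filter or left-out array, with adjusted p up to 0.000835 and 0.00959.

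Il34, the other ligand of CSF1R, ran in another order. It read 7.26, 7.91, 7.20 and 7.05 on primary arrays, 8.33, 7.42 and 8.05 on residual arrays, and 8.42, 8.90, 8.79 and 8.84 on recurrent arrays. All recurrent arrays lay above all others, and residual array 2 fell within the primary range. Recurrent cells were 2.61-fold higher than primary cells (1.38, SE 0.23, adjusted p = 0.0112). The call held in 21 of 22 refits, the exception being the replicate number as a block, and leaving out 1 array gave adjusted p from 0.00647 to 0.0463. The residual mean, 7.93 ± 0.47, lay between the primary mean of 7.36 ± 0.38 and the recurrent mean of 8.74 ± 0.22 (SD, n = 3, 4 and 4), and neither step passed alone in limma (residual against primary 0.58, adjusted p = 0.166; recurrent against residual 0.81, adjusted p = 0.0869). At the residual stage the fitted differences from primary cells were thus -1.70 for Csf1 (95% interval -2.06 to -1.33) and 0.58 for Il34 (0.03 to 1.12).

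Csf3, the granulocyte factor, fell to background in residual cells. It read 7.27, 5.86, 6.55 and 7.19 on primary arrays and 3.95, 3.84 and 3.48 on residual arrays, below the background level of those arrays. The recurrent arrays were uneven, at 5.39, 7.37, 4.58 and 4.67, with array 2 above every primary array and arrays 1, 3 and 4 below all of them. Set against the background level of the residual arrays (mean 4.37), primary cells were at least 5.10-fold higher, and limma gave an adjusted p of 0.00650 for a fitted log2 difference of -2.96 (SE 0.58). Recurrent arrays did not overlap with residual arrays and against the same level were at least 2.20-fold higher, but the difference did not pass (adjusted p = 0.115). Against primary cells the recurrent difference was -1.22 (adjusted p = 0.348), and without recurrent array 2 it was -1.84 (adjusted p = 0.0229).

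Csf2 lay below the background level on all 11 arrays. Its signals were 2.85 to 3.59 on primary, 2.65 to 3.43 on residual and 2.58 to 4.00 on recurrent arrays, and none of its differences passed (adjusted p = 0.649, 0.971 and 0.753). Signals this low set no level, and the sign of their fitted differences carries no direction.

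Csf1r, the receptor for CSF1 and IL-34, was above background on all 11 arrays and did not pass in any comparison. It read 6.37, 6.22, 5.54 and 5.54 on primary arrays, 4.403, 5.29 and 4.74 on residual arrays, and 4.95, 6.03, 4.70 and 5.96 on recurrent arrays. The residual arrays lay below all primary arrays, with residual array 1 close to the background level, and the recurrent arrays fell into a low pair, 1 and 3, and a high pair, 2 and 4. The residual difference from primary cells was -1.11 (95% interval -1.90 to -0.32, adjusted p = 0.0704 in limma). It passed in 4 of 22 refits, among them that on the arrays of the compared groups alone (adjusted p = 0.0345) and that with each array centred on its median (0.0468).

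Cd14 fell at both stages after withdrawal. It read 9.37, 9.32, 9.16 and 8.85 on primary arrays, 7.61, 7.56 and 7.996 on residual arrays, and 8.28, 8.27, 7.66 and 8.48 on recurrent arrays. Every array taken after withdrawal lay below every primary array. Residual cells were 2.74-fold lower than primary cells (-1.46, SE 0.21, adjusted p = 0.000901) and recurrent cells 2.00-fold lower (-1.002, SE 0.19, adjusted p = 0.0244). Recurrent and residual cells differed by 0.45 (adjusted p = 0.253). The recurrent call was lost without primary array 1, 2 or 3 (adjusted p = 0.0830, 0.0762 and 0.0692), while the residual call held in all 22 refits.

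Tyrobp was lower in residual than in primary cells. It read 8.60, 9.12, 7.98 and 7.96 on primary arrays, 6.42, 7.44 and 6.34 on residual arrays, and 7.19, 8.33, 7.66 and 8.84 on recurrent arrays. All residual arrays lay below all primary arrays, and the recurrent arrays overlapped both groups. The residual fall was 3.20-fold (-1.68, SE 0.42, adjusted p = 0.0220 in limma). It did not pass without primary array 1 or 2 or residual array 1 or 3 (adjusted p = 0.0565, 0.0614, 0.0784 and 0.0852). Recurrent cells differed from primary cells by -0.41 (adjusted p = 0.729) and from residual cells by 1.27 (adjusted p = 0.110).

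Cd68 and Mrc1 had lower residual means without passing. Cd68 read 7.68, 8.25, 7.19 and 7.10 on primary arrays, 6.03, 7.18 and 5.62 on residual arrays, and 6.34, 7.16, 6.74 and 7.97 on recurrent arrays. Mrc1 read 7.18, 7.24, 6.53 and 6.43 on primary arrays, 5.10, 6.68 and 5.17 on residual arrays, and 5.54, 5.84, 4.97 and 5.50 on recurrent arrays. Residual array 2 reached into the primary range in both genes, and for Mrc1 all recurrent arrays lay below all primary arrays. The residual differences were -1.28 for Cd68 (SE 0.44, adjusted p = 0.0845) and -1.19 for Mrc1 (SE 0.37, adjusted p = 0.0596). Without residual array 2 they were -1.73 (adjusted p = 0.0309) and -1.71 (adjusted p = 0.00428). Recurrent Mrc1 differed from primary by -1.38 (adjusted p = 0.0765, and 0.0278 on the arrays of the compared groups alone), and recurrent Cd68 by -0.50 (adjusted p = 0.669).

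**Figure D2:**
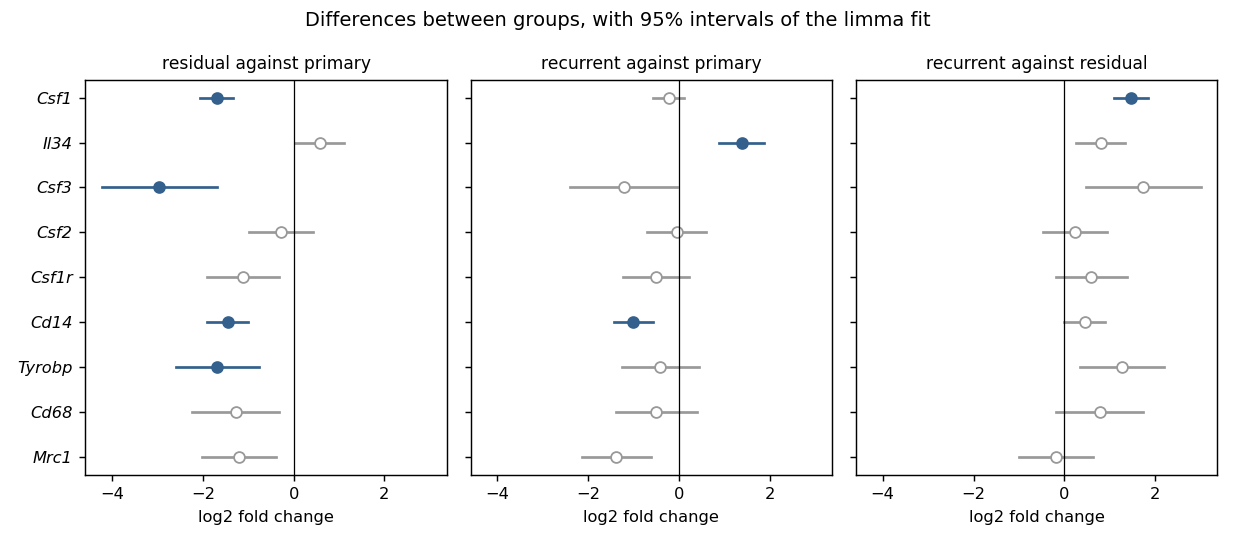
Log2 fold change of the 9 measured genes (x axis, first group minus second group) in the 3 comparisons, with the 95% interval of the limma fit before adjustment over genes. Filled points passed an adjusted p under 0.05. Residual against primary cells has 4 filled points, all below 0, and recurrent against residual cells has 1, Csf1, above 0.

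The arrays of residual and primary cells did not overlap for 5 of the 9 genes, all lower (24.8% of all genes did not overlap, 11.1% higher and 13.7% lower). They were Csf1, Csf3, Csf1r, Cd14 and Tyrobp. For recurrent against primary cells the arrays did not overlap for 3 genes, Il34 higher and Cd14 and Mrc1 lower (9.02% of all genes, 3.64% higher and 5.38% lower), and for recurrent against residual cells for 3, Csf1, Csf3 and Il34, all higher (15.5% of all genes, 8.18% higher and 7.32% lower). All 3 of the latter are growth factors, but in limma only Csf1 passed there (adjusted p = 0.115 for Csf3 and 0.0869 for Il34). The arrays of those groups overlapped for Csf2, which was below background, and for Csf1r, Cd14, Cd68, Mrc1 and Tyrobp. Tyrobp had a difference of 1.27 (adjusted p = 0.110), so the fits do not set the growth factors apart from the myeloid genes.

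Csf1r, Cd14, Cd68, Mrc1 and Tyrobp varied between the arrays of a group. Residual array 2 was the highest residual array for 4 of these 5 genes and the lowest for Cd14. Primary array 2 was the highest primary array for 3 and array 1 for 2, and primary array 4 was the lowest for 4. Recurrent array 4 was the highest recurrent array for 3 genes and array 2 for 2. Csf1 was also highest on residual array 2 among the residual arrays, at 9.21 against 9.15 on residual array 1.

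The other macrophage and monocyte markers gave calls in 1 direction, for a minority of the list. Of 32 markers 8 fell, 0 rose and 24 did not pass in residual against primary cells, where 7.61% of all genes were called lower and 4.81% higher. Of the 32 differences 27 lay below 0, with a median of -0.65 against 0.03 over all genes. Cd53, a tetraspanin of leukocytes, fell by 2.20 (adjusted p = 0.000228 in limma). Clec4n, the C-type lectin dectin-2, and C1qc, a chain of complement C1q, had differences of -1.89 and -1.70 (adjusted p = 0.0373 and 0.0151), where Clec4n was above background on 1 of 3 residual arrays, and Laptm5, a lysosomal protein of blood cells, one of -1.65 (adjusted p = 0.0316). The count was 3 without primary array 1, 3 without primary array 2, 1 without residual array 1 and 3, of which 1 was higher, without residual array 3. Over all genes the count went from 2960 to 2248, 2228, 2469 and 2257 in these 4 refits. In recurrent against primary cells 31 of 32 did not pass and 1 fell, Cd53 (-2.39, adjusted p = 0.000526). Over all genes 0.986% were called lower and 0.818% higher in that comparison. In recurrent against residual cells limma called 0 of the 32, with 6 at an unadjusted p under 0.05, where 3.58% of all genes were called higher and 2.19% lower.

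Their mean log2 signal was 5.48 to 6.24 on primary, 4.78 to 5.59 on residual and 5.005 to 5.99 on recurrent arrays, and their summed linear signal was 2122 to 3903, 1146 to 2080 and 1366 to 3318. The mean was highest on primary array 2 (6.24), residual array 2 (5.59) and recurrent array 4 (5.99). Of the 32 markers 17 were above background on all 11 arrays and 1, Cd84, on none. Adgre1, the classic surface antigen of mouse macrophages, and Ptprc (CD45), defining markers named here outside the rule, had group means of 4.15 to 4.34 and 4.04 to 4.31, near the background level. Adgre1 was above that level on 3 of 4 primary, 0 of 3 residual and 3 of 4 recurrent arrays. Ptprc was above it on 3 of 4, 1 of 3 and 2 of 4. That level was itself higher on residual arrays (4.35 to 4.39) than on primary (4.00 to 4.03) or recurrent arrays (4.06 to 4.12). These counts alone therefore show no fall. The primary and residual means were 4.32 and 4.15 for Adgre1, and 4.31 and 4.24 for Ptprc. Among the brightest of the list, Ctss, the protease cathepsin S, read 7.66 ± 0.60 in primary, 6.22 ± 1.30 in residual and 7.26 ± 1.05 in recurrent samples, but Cx3cr1, the fractalkine receptor, read 6.80 ± 0.23, 7.39 ± 0.43 and 7.51 ± 0.18 (SD, n = 4, 3 and 4). The share of the members' differences that host cells account for was not tested.

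**Figure D3:**
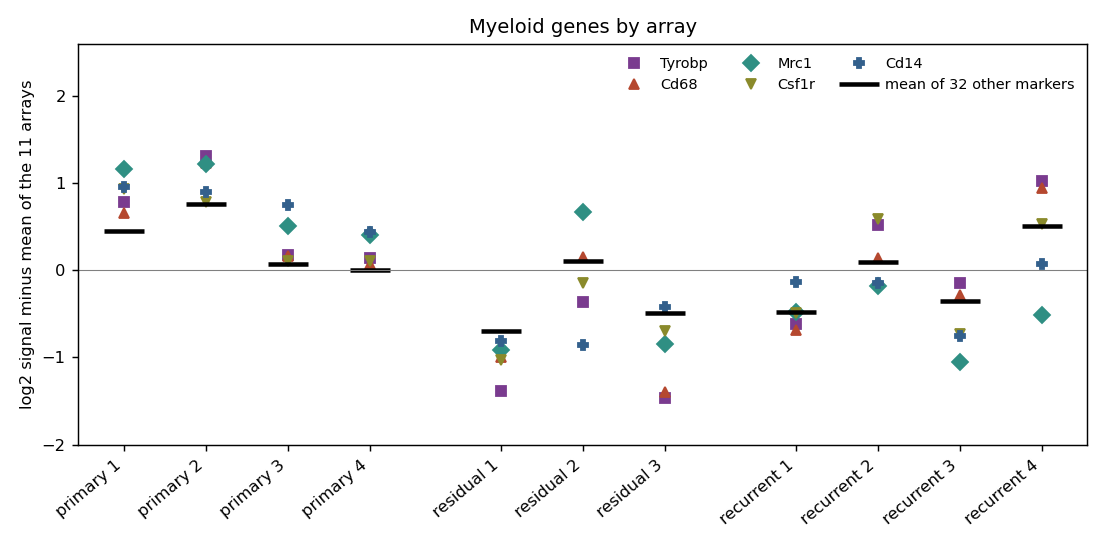
Log2 signal of Csf1r, Cd14, Cd68, Mrc1 and Tyrobp on each array, minus that gene's mean over the 11 arrays (y axis), and the same for the mean of the 32 other macrophage and monocyte markers (black bars). Residual arrays 1 and 3 lie below 0 for all of them, while Cd68, Mrc1 and the marker mean lie above 0 on residual array 2.

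Markers of neutrophils, the cells that G-CSF acts on, were mostly dim: 8 of 14 were below background on all arrays, among them Csf3r, the G-CSF receptor. In residual against primary cells 1 was called higher, Ltf, which was below background on all arrays, and 1 lower. Over all genes 4.81% were called higher and 7.61% lower in that comparison. S100a9, a calcium-binding protein of neutrophils, fell by 2.62 (adjusted p = 0.0480, not passing without primary array 1) and was above background on 1 of 3 residual arrays, and Mmp9, a gelatinase, was higher in recurrent cells than in primary (1.36, adjusted p = 0.0112) or residual cells (1.90, adjusted p = 0.000804, above background on 1 of 3 residual arrays). S100a8, the partner of S100a9, read 11.8 ± 0.21 (SD, n = 4) in primary, 7.65 ± 0.74 (n = 3) in residual and 8.17 ± 3.55 (n = 4) in recurrent samples without passing (adjusted p = 0.0842 and 0.230 against primary cells). Of 21 lymphocyte and natural killer cell markers 11 were below background on all arrays and 1, Prf1, was called in residual against primary cells (0.80, adjusted p = 0.0455). Of 13 endothelial markers 7 were below background on all arrays and 1, Erg, was called there (adjusted p = 0.0495), at least 1.65-fold higher than in primary cells, whose arrays were all below background. Neither Prf1 nor Erg was called without primary array 1. Of 15 dendritic cell markers 8 were below background on all arrays, and 2 were called there, Xcr1, itself below background, and Zbtb46 (0.67, adjusted p = 0.00284), above background on 1 of 4 primary arrays. Of 9 pericyte and smooth muscle markers 1 was called there, Pdgfrb (2.82, adjusted p = 5.74e-07), which was also higher in recurrent against primary cells (2.29, adjusted p = 8.81e-06). Of 7 adipocyte markers 2 were called there, Lpl (1.27, adjusted p = 0.0298) and Retn, itself below background. Of the mast cell markers 0 were called in any comparison in limma, and 0 had an unadjusted p under 0.05.

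In the wider family of these ligands and receptors, 19 genes that include the members, 3 fell and 0 rose in residual against primary cells, with a median of -0.07. The shares of all genes that fell and rose there were 7.61% and 4.81%. Among the 19, the count of those that fell was 5 with each array centred on its median, while all genes called lower went from 1814 to 2333. Besides Csf1 and Csf3, Kitl, the stem cell factor, fell by 2.16 (SE 0.53, adjusted p = 0.0211). In recurrent against primary cells Il34 alone of the 19 was called, where 0.818% of all genes were called higher and 0.986% lower. In recurrent against residual cells Csf1 rose and Sdc1, the proteoglycan syndecan-1 to which IL-34 can bind, fell by 1.15 (adjusted p = 0.0193). Over all genes 3.58% rose and 2.19% fell there. Below background on all arrays were 7 of the 19 genes, Csf2, Csf3r, Il3, Il5, Il5ra, Ptprz1 and Flt3. Csf2rb, the shared beta chain of the GM-CSF receptor, chosen after its values were seen, read 7.88 ± 0.39 in primary, 6.66 ± 0.77 in residual and 6.54 ± 0.57 in recurrent samples (adjusted p = 0.0570 and 0.0870 against primary cells).

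Genes around the other members gave mixed counts. Over all genes, 4.81% were called higher and 7.61% lower in residual against primary cells. Of 13 genes of the lipopolysaccharide receptor complex, Cd14 included, 2 fell and 0 rose in residual against primary cells, the other being Ly96 (MD-2), the partner of Tlr4, by 0.83 (adjusted p = 0.0309). Lbp, the lipopolysaccharide-binding protein, fell by 2.11 in recurrent against residual cells (adjusted p = 0.0438). Of 14 Tyrobp-coupled receptors and partners, Tyrobp included, 3 fell and 0 rose in residual against primary cells, with Fcer1g, the Fc receptor gamma chain, at -1.34 (adjusted p = 0.0364). Cd300lb, a receptor that pairs with DAP12, was below background on all residual arrays and at least 1.31-fold higher in primary cells (adjusted p = 0.00696). Each count was 1 when primary array 1 or 2 or residual array 1 or 3 was left out. Over all genes the count went from 2960 to between 2228 and 2469 in those refits.

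Ly75 (DEC-205), of the mannose receptor family, fell by 2.17 in residual against primary cells (adjusted p = 0.000173, above background on 2 of 3 residual arrays) and rose by 2.12 in recurrent against residual cells (adjusted p = 0.000369), and Mrc2, the collagen receptor of that family, rose by 0.55 in residual cells (adjusted p = 0.0186). Of 11 LAMP family and lysosomal membrane genes, Cd68 included, limma called 0 in residual against primary cells, where 12.4% of all genes were called. Of the 11 genes 3 had an unadjusted p under 0.05, and 2 were called higher when the arrays were scaled to one interquartile range. In that comparison Cd63 and Lamp1 differed by -0.04 and -0.05 before the scaling. Lyz1, the near-identical copy of Lyz2, read 4.70 ± 0.67 in primary, 4.04 ± 0.13 in residual and 4.14 ± 0.14 in recurrent samples and did not pass (adjusted p = 0.167, 0.389 and 0.892). Probes that match both copies can share signal, so this is not read as a level of Lyz2.

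CSF1R signalling genes and myeloid transcription factors moved in both directions, with 4 of 24 higher and 2 lower in residual against primary cells. The shares of all genes called higher and lower there were 4.81% and 7.61%. Runx1 and Maf, transcription factors that epithelial cells also use, rose by 1.01 and 1.04 (adjusted p = 0.00204 and 0.0143). Irf5, an interferon regulatory factor of macrophages, was below background on all residual arrays, and against that level primary cells were at least 1.14-fold and recurrent cells at least 1.25-fold higher (adjusted p = 0.0194 and 0.0182). Jak2, the kinase of the GM-CSF receptor, fell by 0.91 (adjusted p = 0.0117).

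**Figure D4:**
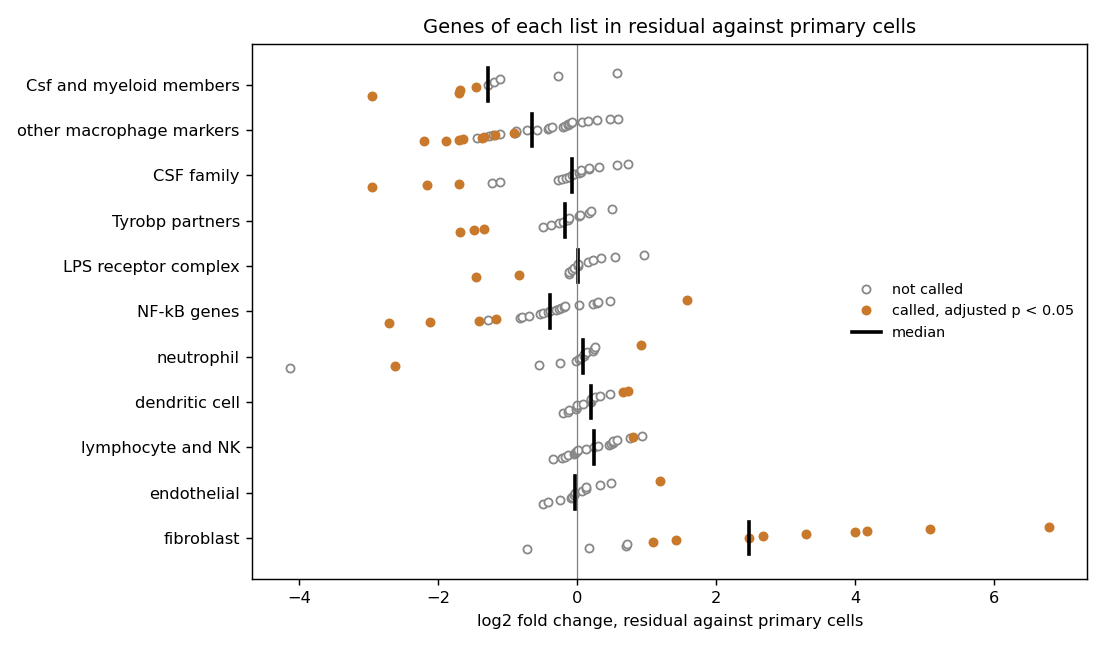
Log2 fold change of each measured gene in residual against primary cells (x axis) by gene list (y axis); filled points passed an adjusted p under 0.05 over all genes, and black bars are list medians. The 9 measured members have a median of -1.28, the 32 other macrophage markers one of -0.65 and the fibroblast markers one of 2.47.

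For each member that passed in a comparison, the genes with the most similar signal over the 11 arrays were taken from 12232 genes above background. The measure was Pearson's r over 11 arrays, which share the group differences, so it is a description with no test. Tyrobp was most like C1qc (r = 0.983), Fcgr1 (0.966), the high-affinity IgG receptor of macrophages, and Cd68 (0.965). Csf1 was most like Knl1 (0.989), a kinetochore protein, Kcnn4 (0.982), a potassium channel, and Hmga1b (0.980), a near copy of the chromatin protein gene Hmga1 with which it can share signal. Csf3 was most like Sdc4 (0.954), Rbms1 (0.947) and Cstf3 (0.946), Cd14 like Ggct (0.957), Psmd14 (0.954) and Ssb (0.949), and Il34 like Hopx (0.916), Ccl8 (0.914) and Trafd1 (0.897). None of the genes listed for Csf1, Csf3, Cd14 or Il34 was a member or among the 32 other macrophage and monocyte markers. Of those listed for Tyrobp, C1qc and Fcgr1 were among the 32, and Cd68 is a member. That marker list is not complete, and which cells gave these signals was not tested.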

How the data were processed

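The authors deposited 1 table of log2 signals from Affymetrix arrays, 24479 rows named by Entrez Gene identifier and 11 columns, made with RMA and R 3.0.2 per the submitters' processing notes. RMA subtracts background, makes the arrays' distributions alike and combines probes into 1 value, which compresses differences between dim signals. The version of the probe annotation was not stated in those notes, and scanner files were not used here.

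Names came from RefSeq GRCm38.p6 by Entrez identifier (23712 rows) or from the platform table (125 rows). The other 642 rows were unnamed, and of 2 symbols with several rows the brighter was kept. With limma 3.58.1 in R 4.3.3, 1 model held the 3 group means of all 11 arrays (8 residual and 3.46 prior degrees of freedom), and two-sided p-values were adjusted over 23835 genes. Levels are means ± SD of log2 signals.

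The genes, the lists and the motifs were chosen with earlier results of these data known. All members are named. Of a list, up to 4 called genes with the largest change were picked, or the 2 brightest where none passed, and of cell type lists also the 3 brightest. Not all of the genes picked are named or described. The fit was tested on simulated data. Alternatives were the compared groups alone, the replicate number as a block, other scalings, filters on dim genes, all rows, other variance estimates, array weights (statmod 1.5.0), stricter thresholds and leaving out each array.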

Additional observations from a re-analysis of the deposited data

How the results depend on the processing

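Csf1, Csf3 and Cd14 in residual against primary cells and Csf1 in recurrent against residual cells kept their direction and call in every alternative run. Same-numbered arrays did not deviate together (r across genes of -0.08 to 0.02 between them). Such values over all genes cannot exclude a shared origin, and the labels do not say whether the numbers pair the arrays. With the replicate number as a block, members called in recurrent against primary cells went from 2 to 1 (Il34, adjusted p = 0.0508, was lost, as was Cd14 at 0.0819, and Mrc1, at 0.0399, was gained), all genes called there from 430 to 277 and in recurrent against residual cells from 1377 to 872. On the compared groups alone the latter count was 609. At an adjusted p under 0.01 genes called were 1375 between residual and primary, 142 between recurrent and primary and 521 between recurrent and residual cells, and 0 members were called in recurrent against primary cells. With at least 1 log2 unit added they were 1361, 266 and 708. Leaving out 1 array gave 1 to 3 members and 203 to 420 genes in recurrent against primary cells, the lowest count without primary array 4. It turned the sign of differences that did not pass: Csf2 in recurrent against primary cells ran from -0.32 (without recurrent 1) to 0.15 (without recurrent 4), Csf2 in recurrent against residual cells from -0.041 (without recurrent 1) to 0.49 (without residual 2), and Mrc1 there from -0.46 (without residual 1) to 0.33 (without residual 2). Mrc1 in residual against primary cells passed in 6 of 22 refits and Cd68 in 1. Of CSF1R signalling genes and of inflammatory genes, 3 each were called in residual against primary cells with the block, against 6 and 5 without. All genes called there went from 2960 to 2198 with the block. Signals under the background level, as of Csf2 on all arrays and Csf3 on residual arrays, set no level.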

Other observations

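Inflammatory genes that NF-kB is known to regulate were followed as a further list, since Csf1, Csf2 and Csf3 are commonly counted with them. Of 23 genes 4 fell and 1 rose in residual against primary cells (median -0.39), and 5 rose and 1 fell in recurrent against residual cells (median 0.61), while limma called 0 in recurrent against primary cells, with 6 at an unadjusted p under 0.05. Over all genes, 7.61% fell and 4.81% rose in residual against primary cells, and 3.58% rose and 2.19% fell in recurrent against residual cells. Among those called in residual against primary cells Cxcl5 fell most, by 2.71 (adjusted p = 0.0261 in limma, above background on 2 of 3 residual arrays). Cxcl2, a chemokine for neutrophils, had means of 11.8, 9.69 and 11.9 in primary, residual and recurrent cells (adjusted p = 0.00147 and 0.00243 for the steps into and out of the residual stage). Ccl2, the monocyte chemokine, had means of 10.5, 9.05 and 11.1 (adjusted p = 0.0343 and 0.00969). Tnfaip3, the inhibitor A20, rose by 2.49 in recurrent against residual cells (adjusted p = 0.00513). Il6 moved the other way, rising by 1.58 in residual cells (adjusted p = 0.00467) and falling by 1.33 in recurrent against residual cells (adjusted p = 0.0212). In residual against primary cells the count of 5 was 3 without primary array 1 or 4 or residual array 1 or 2. Over all genes that count went from 2960 to between 2248 and 2469. In recurrent against residual cells the count of 6 was 3 without residual array 1, and that over all genes went from 1377 to 979.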
